A study of Mus musculus with 6 samples.

Results

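The immunity-related GTPases (IRG proteins) described here are Irgm2, Igtp (also called Irgm3), Irgm1 and Iigp1 (also called Irga6). They were taken as every probe set whose platform annotation names a single gene with one of these symbols, which gave 5 probe sets for 4 genes of the 18194 genes measured: 1 each for Irgm2, Igtp and Irgm1, and 2 for Iigp1. The family was selected on measured values, since Irgm2 and Igtp were higher in the knockout arrays of this same comparison, so the members' differences are given as a description, with no test. The study set bone marrow erythroblasts from 3 knockout mice (KO), which have no miR-144/451 locus, against those from 3 wild-type mice (WT). The cells carried the erythroid marker Ter119 and the transferrin receptor CD71, had high forward scatter (large cells), and were sorted into Trizol LS. Total RNA of each mouse was hybridised to 1 Affymetrix Mouse Genome 430 2.0 array. The KO arrays are numbered 493, 548 and 551 in the labels and the WT arrays 497, 504 and 550. Strain, age, sex and the way the locus was deleted are not given in the sources used here. The microRNAs were not analysed here, so the genotypes rest on the labels.

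IRG proteins are large GTPases that interferons, above all interferon-gamma, induce in mouse cells, where they defend against bacteria and protozoa living inside vacuoles. Effector members such as Iigp1 load onto the vacuole and help to break it. The regulatory members Irgm1, Irgm2 and Igtp sit on the cell's own membranes and keep effectors inactive there. In mice, loss of Irgm1 is also known to impair blood stem cells through an excessive response to interferon.

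RefSeq promoter windows (assembly GRCm38.p6, 250 bases before to 50 bases after the gene start) matched Irgm2, Igtp and Irgm1. They are shown because Irgm2 and Igtp, which differed between the genotypes, are adjacent genes on chromosome 11 with nearly the same promoter, while Irgm1 stands apart from them on the same chromosome. Capitals mark a GAS motif, searched as TTC and GAA with any 3 bases between them and known from promoters that interferon-gamma induces, or an ISRE-type motif, searched as 2 copies of GAAA with any 2 bases between them, which interferon regulatory factors can bind. Both strands were searched, and the matches of Irgm2 and Igtp to the GAS and ISRE-type motifs do not overlap. The windows are chr11:58214727-58215026 (plus strand) for Irgm2, chr11:58199306-58199605 (plus strand) for Igtp and chr11:48871371-48871670 (minus strand) for Irgm1, each written 5′ to 3′ along its gene.
Irgm2: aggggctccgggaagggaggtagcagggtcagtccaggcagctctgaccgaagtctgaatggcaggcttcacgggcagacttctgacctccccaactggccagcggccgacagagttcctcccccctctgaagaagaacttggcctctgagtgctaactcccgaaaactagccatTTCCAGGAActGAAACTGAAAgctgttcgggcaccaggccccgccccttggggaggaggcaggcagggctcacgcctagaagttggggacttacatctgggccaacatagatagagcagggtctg
Igtp: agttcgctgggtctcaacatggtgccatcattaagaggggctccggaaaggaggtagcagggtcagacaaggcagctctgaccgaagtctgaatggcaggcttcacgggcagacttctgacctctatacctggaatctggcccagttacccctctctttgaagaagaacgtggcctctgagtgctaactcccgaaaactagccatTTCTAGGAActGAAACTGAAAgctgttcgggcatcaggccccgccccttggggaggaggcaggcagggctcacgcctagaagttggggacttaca
Irgm1: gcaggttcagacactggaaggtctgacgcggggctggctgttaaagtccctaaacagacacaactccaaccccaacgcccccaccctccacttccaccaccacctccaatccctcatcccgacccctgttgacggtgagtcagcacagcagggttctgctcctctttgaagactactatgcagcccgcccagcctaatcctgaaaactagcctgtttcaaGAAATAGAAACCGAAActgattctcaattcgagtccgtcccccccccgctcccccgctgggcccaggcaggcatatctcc

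The Irgm2 and Igtp windows aligned over 265 bases, of which 244 (92.1%) were identical, and their longest shared run was 61 bases. In Irgm2 the GAS match TTCCAGGAA lay at positions -75 to -67 from the gene start and the ISRE-type match GAAACTGAAA at -64 to -55. In Igtp the GAS match TTCTAGGAA lay at -45 to -37 and the same ISRE-type match at -34 to -25. The Irgm1 window aligned with that of Irgm2 over 220 bases (71.8% identical) and with that of Igtp over 218 bases (70.6%). How identical unrelated windows are in such an alignment was not examined. The Irgm1 window shared no run longer than 11 bases with either. It held 2 overlapping ISRE-type matches, GAAATAGAAA at -30 to -21 and GAAACCGAAA at -24 to -15, and no GAS match. Over all 32851 RefSeq mouse windows of this length, 3.44% held an ISRE-type match, 8.3% a GAS match and 0.454% both. Irgm2 and Igtp thus carry both motifs, and Irgm1 the ISRE-type motif alone, within these windows. No window was available here for Iigp1, so its promoter was not examined. Among other IRG genes, the windows of Tgtp1, Tgtp2 and Gm12250 also held both motifs and that of Ifi47 neither.

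The locus that the KO mice lack encodes the microRNAs miR-144 and miR-451a, which are abundant in maturing red cells. Their main mature strands (RefSeq, GRCm38.p6, plus strand) lie at chr11:78073047-78073066 and chr11:78073186-78073207 on the same chromosome as Irgm1, Igtp and Irgm2, with the seed (bases 2 to 8) in capitals. They are shown because they define the genotype, and the IRG transcripts were not searched for seed matches here.
mmu-miR-144-3p: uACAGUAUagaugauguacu
mmu-miR-451a: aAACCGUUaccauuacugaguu

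Erythroblast identity was checked on the arrays first. The 8 measured erythroblast markers, which include Gata1, Klf1, Alas2, Slc4a1 and Tfrc, had a mean log2 intensity of 12.34 to 12.37 in KO arrays and 12.40 to 12.48 in WT arrays. Of the 8 erythroblast markers, 7 lay lower in KO arrays. Markers of other blood cells were present too, and most also lay lower in KO arrays. These were 11 of 13 macrophage, 9 of 9 neutrophil, 6 of 7 B lineage, 7 of 9 T and NK, and 6 of 7 dendritic cell markers. Over all genes, 55.7% lay lower. The mean log2 level of the B lineage markers was 8.19 to 8.50 in KO and 8.69 to 9.18 in WT arrays, and that of the macrophage markers 8.35 to 8.57 in KO and 8.52 to 9.01 in WT arrays. Neutrophil markers had 11.66 to 11.96 in KO and 12.05 to 12.22 in WT arrays, T and NK markers 5.98 to 6.34 in KO and 6.35 to 6.95 in WT arrays, and dendritic cell markers 6.93 to 7.19 in KO and 7.18 to 7.65 in WT arrays. Megakaryocyte markers did not follow this pattern, with 3 higher and 4 lower of 7 and a mean level of 9.41 to 9.65 in KO and 9.47 to 9.59 in WT arrays. None of these markers was at the floor of the scale in all arrays, and limma called 0 of them, where it called 0.385% of all genes. The 3′ minus 5′ signal of the actin control probe sets, a measure of RNA integrity and labelling, was 1.82 to 1.86 in KO and 1.65 to 1.67 in WT arrays (log2). The part of these shifts in the IRG values was not tested. In bulk RNA, fewer cells of a type and less RNA per cell cannot be told apart.

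Irgm2 showed the largest difference of the family. Its log2 intensity was 10.83, 10.46 and 11.02 in KO arrays 493, 548 and 551, against 7.84, 7.85 and 7.78 in WT arrays 497, 504 and 550. The lowest KO array, 548, was 2.61 above the highest WT array, 504, and the groups did not overlap. The means were 10.77 ± 0.28 in KO and 7.82 ± 0.04 in WT (SD, n = 3 each), a log2 difference of 2.95 ± 0.16 (KO minus WT, limma's moderated SE), or 7.71-fold. It ranked 5 among the 45037 probe sets by the size of a higher level in KO. The KO arrays were spread over 0.56 and the WT arrays over 0.07.

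Igtp, the gene next to Irgm2 with no gene between them in RefSeq, encodes a regulatory IRG protein of the endoplasmic reticulum. It had 12.11, 11.85 and 12.26 in KO arrays 493, 548 and 551, against 10.73, 10.81 and 10.69 in WT arrays 497, 504 and 550. Again every KO array lay above every WT array, by at least 1.04. The means were 12.07 ± 0.21 in KO and 10.74 ± 0.06 in WT (SD, n = 3 each), a log2 difference of 1.33 ± 0.13 (SE), or 2.51-fold, which ranked 52. Over all probe sets, 10.7% had every KO array above every WT array, 26% were separated in either direction, and among the 5 member probe sets the Irgm2 and Igtp ones were separated, both upward. Because the genes were chosen for this contrast, nothing is read from that count.

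The ups and downs of Irgm2 and Igtp matched within each genotype as well. Array 548 was the lowest and 551 the highest KO array for both genes, and 550 the lowest and 504 the highest WT array for both. For Irgm2, WT 504 (7.85) and WT 497 (7.84) differ only in the last decimal given, so their order is not resolved. Pearson's r over the 6 arrays was 0.997, given as a description, since both genes differ between genotypes and were hybridised together. The genes are close relatives, and whether any probe of one probe set also binds the transcript of the other was not examined here.

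Irgm1, the regulatory member known from the Golgi, lysosomes and mitochondria, had the opposite sign and a far smaller difference. Its log2 intensity was 9.43, 9.42 and 9.57 in KO arrays 493, 548 and 551, against 9.65, 9.62 and 9.56 in WT arrays 497, 504 and 550. KO 551 lay just above WT 550, so the groups overlapped by a narrow margin. The means were 9.47 ± 0.08 in KO and 9.61 ± 0.05 in WT (SD, n = 3 each), a log2 difference of -0.14 ± 0.10 (SE). Irgm1 lies away from the other pair, with 109 measured genes between it and Igtp.

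Iigp1, the effector member and the only one of the 4 on chromosome 18, gave dim and scattered signals. Its brighter probe set had 4.88, 5.09 and 5.95 in KO arrays 493, 548 and 551, against 5.60, 6.03 and 4.55 in WT arrays 497, 504 and 550. The groups overlapped throughout, and the log2 difference was -0.09 ± 0.43 (SE, n = 3 each). It changed sign when single arrays were left out, running from -0.51 without WT 550 to 0.23 without WT 504, and was 0.02 after another quantile normalization, so it has no stable direction here.

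The dimmer Iigp1 probe set had 3.30, 3.22 and 4.25 in KO arrays 493, 548 and 551, against 5.64, 4.48 and 2.89 in WT arrays 497, 504 and 550. All 3 KO values and that of WT 550 lay below the lower quartile of their own arrays, which was 4.30 to 4.34 in KO and 4.35 to 4.40 in WT arrays. The difference of -0.75 ± 0.67 (SE) rested on WT 497, without which it was -0.10, and was -1.47 without WT 550.

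**Figure D1:**
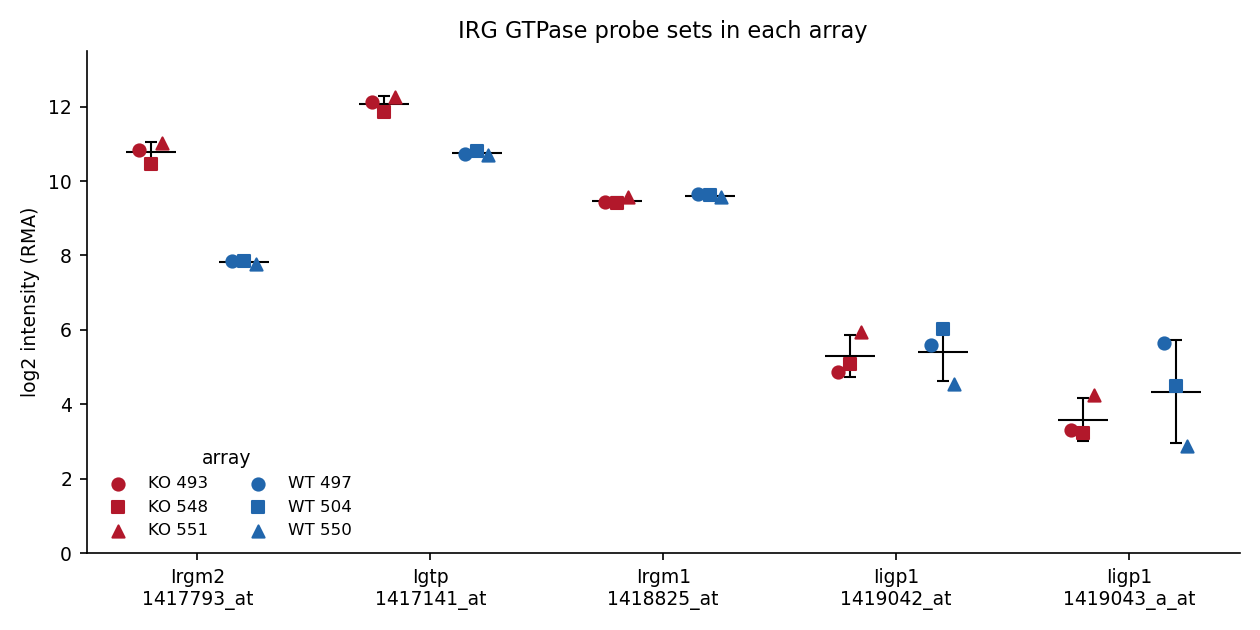
Log2 intensity (vertical axis) of the 5 IRG probe sets (horizontal axis) in each of the 3 KO arrays (red, left) and 3 WT arrays (blue, right); black lines are means and error bars are SDs. The groups are apart for Irgm2 (means 10.77 in KO and 7.82 in WT) and Igtp (12.07 in KO and 10.74 in WT) and overlap for Irgm1 and both Iigp1 probe sets.

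A common array pattern ran through the family. In all 5 member probe sets KO 551 was the highest KO array and WT 550 the lowest WT array. The same held for 2 of 6 probe sets of other IRG genes, those of Ifi47 and Gm4951, and for 9.36% of all probe sets. The pattern was not particular to IRG genes. Among the Gbp genes below, each read by its brightest probe set, Gbp2 and Gbp6 also showed it, while others such as Gbp7 did not. Of the 32 measured type I response genes below, Usp18, Rtp4, Oas1a, Bst2, Oas2, Zbp1, Ddx58, Ifit3, Mx1, Oasl2 and Samd9l showed it. The other type I genes, such as Ifit1, did not. Ifi47 (also called IRG-47), an effector IRG gene near Irgm1, had 10.28, 10.28 and 10.43 in KO arrays 493, 548 and 551, against 10.58, 10.66 and 10.29 in WT arrays 497, 504 and 550. This pattern was noticed after the values were seen.

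No other measured IRG gene passed the test. Of the list of other IRG genes, 5 were measured. The test was limma's comparison of KO with WT, with Benjamini-Hochberg adjustment over all probe sets and a threshold of 0.05. It called 0.355% of all probe sets, 0.171% as lower in KO, and, reading each gene by its brightest probe set, 0.385% of all genes, 0.148% as lower. Of the 5 genes it called 0, with 0 at an unadjusted p under 0.05 and 0 called by a fit with an intensity trend and a robust prior, here called the trend fit. For comparison, 21% of the genes measured fell under that unadjusted threshold, 55.7% were lower in KO arrays and the trend fit called 4.42%. Their differences ran from -0.18 for Ifi47 (SE 0.13, adjusted p = 0.486) to 0.19 for Gm4951 (SE 0.39, adjusted p = 0.83), with a median of -0.01, against -0.04 over all genes. Gm12185, Irgq and Irgc1 lay between them.

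The guanylate-binding proteins (Gbp genes), interferon-inducible GTPases that act with IRG proteins at the vacuole, gave no call among 6 measured members. That count of 0 held for limma's test, for an unadjusted p under 0.05 and for the trend fit. Differences ran from -0.58 ± 0.26 (SE, adjusted p = 0.274) for Gbp2 to 0.26 for Gbp6, and in none did the groups separate, where 28.8% of all genes separated in either direction. Gbp2 had 5.10, 5.26 and 5.36 in KO arrays 493, 548 and 551, against 6.17, 6.07 and 5.21 in WT arrays 497, 504 and 550, so the values of WT 550 lay among those of KO. Gbp8 was at -0.32 ± 0.22 (adjusted p = 0.46). The list median was -0.18.

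The signalling genes upstream of the IRG family leaned lower in KO arrays without passing the test. Of 18 measured interferon-gamma signalling genes, limma called 0, and 15 (83.3%) were lower, against 55.7% of all genes. Groups separated downward for 6 and upward for 0, where 16.2% of all genes separated downward, and these 6, Ifngr1, Ifngr2, Stat2, Irf9, Irf1 and Nlrc5, were also those with an unadjusted p under 0.05 (33.3% of the list, against 21% of all genes). Ifngr1, the ligand-binding chain of the interferon-gamma receptor, had 8.60, 8.63 and 8.71 in KO arrays 493, 548 and 551, against 9.39, 9.16 and 9.28 in WT arrays 497, 504 and 550. The difference was -0.63 ± 0.11 (SE, adjusted p = 0.07). The trend fit called this gene (adjusted p = 0.0211), as did the fit without dim probe sets, and over the normalization, filter and trend alternatives its adjusted p ran from 0.0211 to 0.0665. Leaving out 1 array gave 0.112 to 0.195, with a call in 0 of 6 fits.

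Ifngr2, the second receptor chain, had 7.65, 7.36 and 7.41 in KO arrays 493, 548 and 551, against 8.50, 7.88 and 8.09 in WT arrays 497, 504 and 550, a difference of -0.68 ± 0.18 (adjusted p = 0.133). Its other probe set was at -0.61. The gene for the ligand, Ifng, was dim in both groups, with means of 3.85 in KO and 3.87 in WT arrays. The list median was -0.16, against -0.04 over all genes. Most markers of erythroblasts, neutrophils, B cells, T and NK cells and macrophages lay lower in the same KO arrays, as given above.

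The wider type I interferon response held 1 called gene of 32 measured, Xaf1, a proapoptotic interferon-inducible gene on chromosome 11. Over all genes, limma called 0.385%, with 0.148% as lower in KO. Xaf1 is no clean case, since its 2 probe sets went opposite ways. The brighter had 6.29, 6.65 and 7.0 in KO arrays 493, 548 and 551, against 9.87, 9.88 and 9.98 in WT arrays 497, 504 and 550 (difference -3.26, limma adjusted p = 0.00423). The other differed by 4.23 and was itself called, as higher in KO (limma adjusted p = 0.0142). The direction of the call thus depends on the probe set read. Of the list, 10 were higher and 22 lower, 8 (25%) had an unadjusted p under 0.05, close to the 21% of all genes, and the median was -0.12. The trend fit called 2 (6.25%), against 4.42% of all genes. Groups separated upward for 2 of the 32 and downward for 7, where 12.5% and 16.2% of all genes did so. Among genes named after their values were seen, Usp18, which restrains the type I receptor, was at -0.93 ± 0.24 (adjusted p = 0.127) and Oas1a, an RNA-sensing synthetase, at 0.91 ± 0.32 (adjusted p = 0.194).

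**Figure D2:**
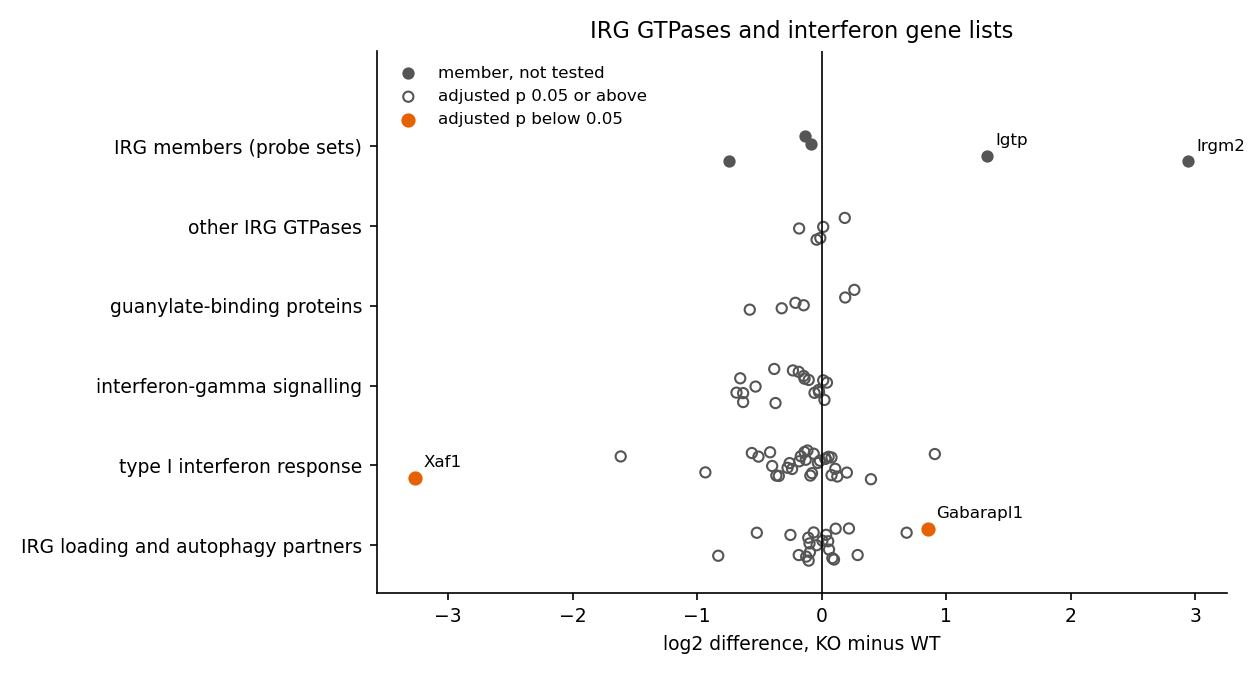
KO minus WT log2 difference (horizontal axis) of the 5 IRG probe sets and of the genes of 5 related lists, 1 circle per gene, read by its brightest probe set (vertical jitter only separates points); orange marks genes with an adjusted p below 0.05. Irgm2 (2.95) and Igtp (1.33) lie to the right of every gene of these lists, of which the highest on this reading is Oas1a at 0.91; the dimmer Xaf1 probe set, at 4.23, is not drawn.

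IRG proteins depend on the autophagy conjugation machinery, which attaches ATG8 family proteins to membranes and steers the loading of effectors. Among 22 measured genes of this kind, limma called 1, Gabarapl1, an ATG8 family member, which was higher in KO arrays, where 0.236% of all genes were called higher. Gabarapl1 had 10.69, 10.53 and 10.57 in KO arrays 493, 548 and 551, against 9.69, 9.75 and 9.79 in WT arrays 497, 504 and 550. It rose by 0.85 ± 0.10 (SE, adjusted p = 0.0342), and its other probe set by 0.88. Over the normalization, filter and trend alternatives the adjusted p of Gabarapl1 ran from 0.00188 to 0.0375, and averaged probe sets gave 0.0175. The call ended whichever array was left out, with adjusted p-values of 0.0911 to 0.13. Leaving out 1 array also cut the calls over the whole array, from 160 probe sets to between 8 and 23.

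Atg5, part of the conjugating enzyme and named after its value was seen, had 9.22, 9.26 and 9.34 in KO arrays 493, 548 and 551, against 8.61, 8.64 and 8.52 in WT arrays 497, 504 and 550. Its difference was 0.68 ± 0.10 (adjusted p = 0.0569), and its other probe sets were at 0.20 and 0.22. Over the same alternatives the adjusted p of Atg5 ran from 0.0129 to 0.0533, and without 1 array it was 0.112 to 0.168. The list as a whole had 11 higher and 11 lower members and a median of -0.02. Groups separated upward for 4 of the 22 and downward for 7, where 12.5% and 16.2% of all genes did so. The trend fit called 4 (18.2%), against 4.42% of all genes. Rabgap1l, also named after its value was seen, was at -0.83 ± 0.18 (adjusted p = 0.103), and its other probe sets were at -0.37 to -0.22. Gabarap, Gabarapl2 and Map1lc3b, other ATG8 family members, were at 0.01, -0.25 and -0.12.

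Genes around the Irgm2 and Igtp pair were examined next, because chromosome 11 also carries the deleted locus. In RefSeq order, 339 measured genes lie between Irgm2 and the position of Mir144. Taking 10 measured genes to the left and 10 to the right of the pair, limma called 1 of 20, Gemin5, which was higher in KO. Over all genes, 0.236% were called higher. Of the 20 neighbours, 9 (45%) had an unadjusted p under 0.05, against 21% of all genes. The trend fit called 4 (20%), against 4.42% of all genes. The median of the 20 was 0.26, against -0.04 over all genes. In 8 of the 20 every KO array lay above every WT array, where 12.5% of all genes did so, and in 1 every KO array lay below.

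Most of the genes that lay higher were on the Igtp side. There, 9 of 10 genes were higher in KO arrays and 7 separated, with a median of 0.51, whereas on the Irgm2 side 3 of 10 were higher, 1 separated upward and the median was -0.04. Galnt10, on the Igtp side and named after its values were seen, counts there by its brightest probe set, at 0.59. Its other probe sets were at 0.14 and at -0.83, the latter with every KO array below every WT array. The sides were split after the values were seen, and the difference between them was not tested.

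Mrpl22, a mitochondrial ribosomal protein and the nearest measured gene on the Igtp side, had 11.17, 11.13 and 11.31 in KO arrays 493, 548 and 551, against 10.85, 11.13 and 10.88 in WT arrays 497, 504 and 550. With a difference of 0.25 ± 0.12 (adjusted p = 0.307) its groups met at KO 548 and WT 504. Next came Gemin5, which recognises small nuclear RNAs for assembly into ribonucleoproteins. It had 9.40, 9.40 and 9.50 in KO arrays 493, 548 and 551, against 7.82, 8.19 and 8.17 in WT arrays 497, 504 and 550, and rose by 1.37 ± 0.13 (SE, adjusted p = 0.0198). Its probe sets did not agree in size: the others were at 0.79 and 0.00, and their mean was not called (0.72, adjusted p = 0.0709). Over the normalization, filter and trend alternatives the adjusted p of the called probe set ran from 0.00188 to 0.0238. The call also ended whichever array was left out (adjusted p-values of 0.059 to 0.11).

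Cnot8, a deadenylase subunit, and Larp1, which binds messenger RNAs of the translation machinery, follow in order and are named after their values were seen. They were at 0.61 ± 0.13 (adjusted p = 0.102) and 0.55 ± 0.14 (adjusted p = 0.125). On the Irgm2 side, the nearest measured gene, 4930438A08Rik, had 7.57, 8.08 and 7.65 in KO arrays 493, 548 and 551, against 9.45, 8.63 and 8.49 in WT arrays 497, 504 and 550, a difference of -1.09 ± 0.27 (adjusted p = 0.125). The next, the zinc finger gene Zfp692, was at 0.27 ± 0.14 (adjusted p = 0.344). Neither passed the test.

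Around Irgm1, limma called 0 of 20 genes, 4 had a p under 0.05 before adjustment, and 1 was called by the trend fit. These are 20% and 5% of the list, close to the 21% and 4.42% of all genes. In 6 of the 20 every KO array lay above every WT array, and in 3 every KO array lay below. Over all genes these shares were 12.5% and 16.2%. The list median was -0.08. The nearest on one side, Trim7, a ubiquitin ligase, was at -1.13 ± 0.32 (adjusted p = 0.143), and Trim41 at -0.12 ± 0.10. On the other side lay the IRG genes Gm12185 (0.01 ± 0.10) and Ifi47 (-0.18 ± 0.13).

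**Figure D3:**
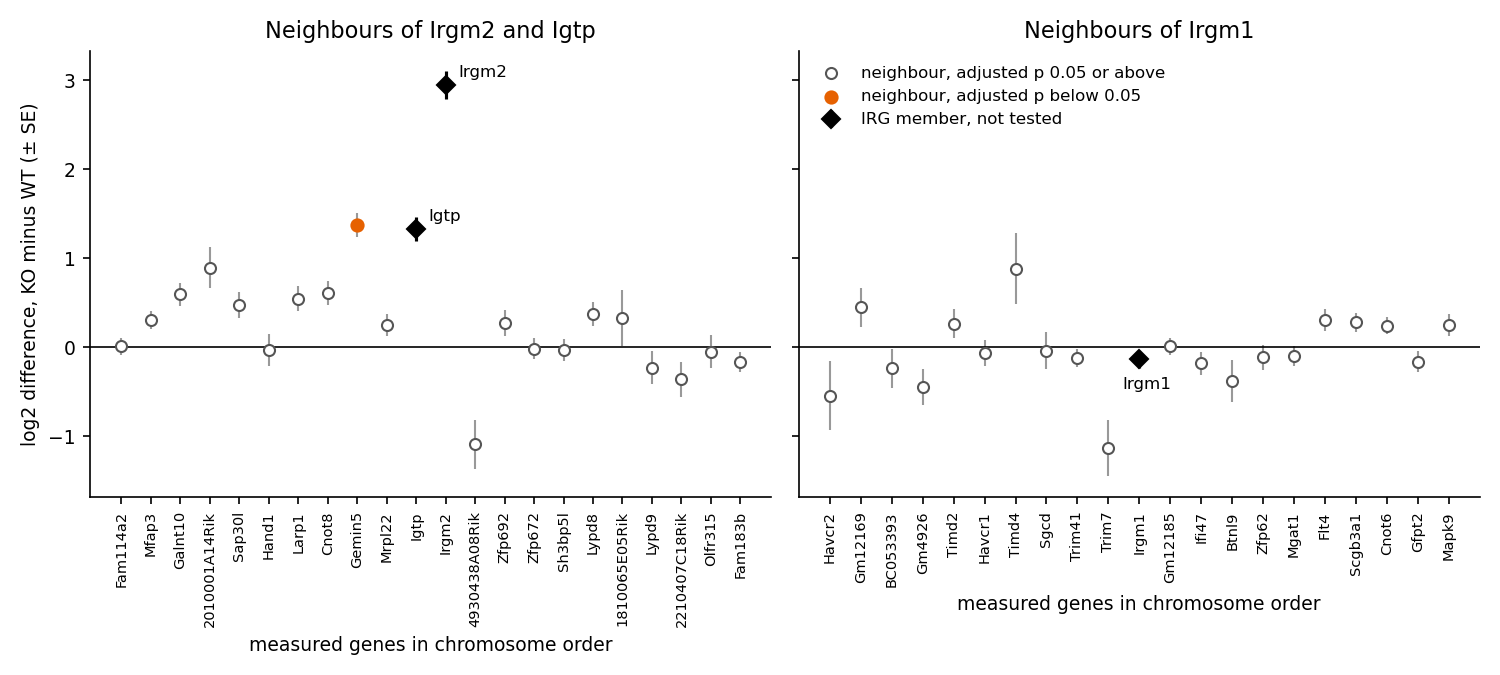
KO minus WT log2 difference with its SE (vertical axis) for 10 measured genes in either direction from the Igtp and Irgm2 pair (left) and of Irgm1 (right), in chromosome order; diamonds are Irgm2, Igtp and Irgm1, and orange marks an adjusted p below 0.05. Irgm2 (2.95) stands above all neighbours, Igtp (1.33) is close to Gemin5 (1.37), and Irgm1 (-0.14) lies among its neighbours.

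Genes whose profile over the arrays was most like that of Irgm2 were sought among 1269 genes with an SD of at least 0.5 over the 6 arrays. The 5 highest Pearson correlations were those of Gnai3, an inhibitory G protein subunit (0.998), Drg2, a GTP-binding protein (0.996), Degs2, a sphingolipid desaturase (0.994), Tfb2m, a mitochondrial transcription factor (0.993), and D830012I24Rik (0.992). For Igtp the 5 were Tfb2m (0.995), Gnai3 (0.995), Drg2 (0.994), Rbm41, an RNA-binding protein (0.991), and Lypla1, an acyl-protein thioesterase (0.991). Gnai3, Drg2 and Tfb2m stood on both lists. Over 6 arrays in 2 groups such values mainly follow the genotype difference, and they are a description. Drg2 was on chromosome 11, the other named genes were on other chromosomes, and D830012I24Rik had none in RefSeq here. Drg2 had 9.27, 9.19 and 9.45 in KO arrays 493, 548 and 551, against 7.77, 7.96 and 7.89 in WT arrays 497, 504 and 550, with KO 548 lowest and KO 551 highest as for Irgm2 and Igtp.

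**Figure D4:**
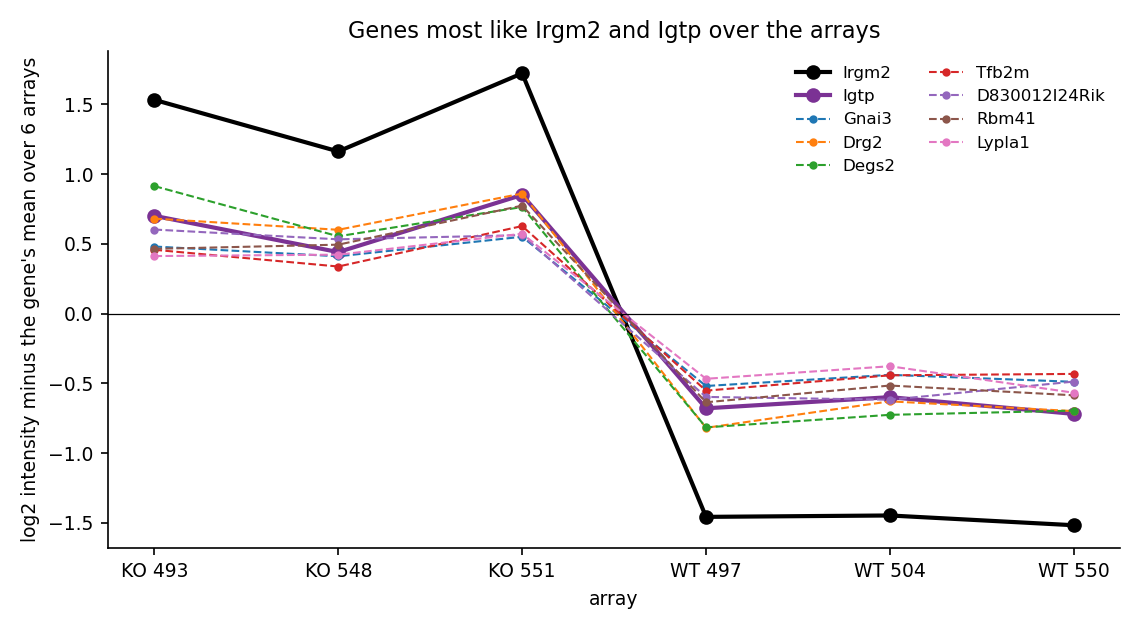
Log2 intensity minus each gene's mean over the 6 arrays (vertical axis) for Irgm2, Igtp and the 7 genes most like them, by array (horizontal axis; KO 493, 548 and 551, then WT 497, 504 and 550). Igtp and the similar genes run between about the same levels, while Irgm2 spans a wider range, with 10.46 to 11.02 in KO and 7.78 to 7.85 in WT before centring.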

How the data were processed

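Gene expression was measured on 6 arrays, 3 KO and 3 WT, grouped by the sample titles. The deposited intensity values are probe-set summaries made by the authors with RMA, per the submitters' processing notes; version, software and background step are not given in the sources used here. They are linear, the lowest is 1, and 100% are log2 values of 2 decimals raised back to the linear scale (within 0.005), so log2 was taken with no pseudocount. RMA brings arrays toward a common distribution, which can remove a shift of most transcripts. Of 45101 probe sets, 64 controls were left out and 45037 tested by lmFit and eBayes (limma 3.58.1, R 4.3.3; Benjamini-Hochberg adjustment; no covariates), checked on simulated data. Detection calls were not used, and the number of arrays limits precision. Gene names came from GEO's platform annotation, 34945 probe sets having 1 gene, 932 several and 9160 none here; 99.1% of genes matched RefSeq (GRCm38.p6), used for symbols, chromosomes and gene order. The probe set of highest mean stood for its gene. Lists were described by counts and medians. Named genes were the members, up to 4 called genes per list with the largest change or otherwise the 2 with the smallest p, the 2 nearest genes on each side of Irgm1 and of the Irgm2 and Igtp pair, and the 5 genes most correlated with Irgm2 and with Igtp. Members and lists were chosen with earlier results of these data known. Promoters were aligned with Biopython 1.88. The alternatives were renewed quantile and cyclic loess normalization, a filter at the median level, an intensity trend with robust prior, averaged probe sets, group medians and leaving out each array.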

Additional observations from a re-analysis of the deposited data

How the results depend on the processing

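The differences of all 5 IRG probe sets moved by less than 1 SD between replicates under both normalizations and with group medians. With 3 arrays per group, leaving out 1 array cannot move a difference by that much, so this limit does not judge those fits. Leaving out 1 array gave 2.82 to 3.10 for Irgm2, 1.24 to 1.44 for Igtp and -0.19 to -0.11 for Irgm1. For Iigp1 it gave -0.508 to 0.232 with the brighter probe set and -1.47 to -0.095 with the dimmer. Over the whole array limma called 160 probe sets, 83 higher and 77 lower. It called 1015 with dim probe sets left out, 1592 with the intensity trend and robust prior together (the trend fit), 8 to 23 without 1 array (8 without KO 548), and 157 higher and 77 lower after another quantile normalization. By gene, 43 were called higher and 27 lower, against 69 and 24 after that normalization. Counts of called genes moved as follows. Autophagy partners (1 called) had 2 with the filter, 2 after quantile normalization, 4 with the trend fit and 0 whichever array was left out. Interferon-gamma signalling (0) had 1 with the filter and 1 with the trend fit. Type I interferon genes (1) had 2 with the trend fit and 0 with averaged probe sets. Neighbours of Irgm2 and Igtp (1) had 2 with the filter, 4 with the trend fit, 0 with averaged probe sets and 0 whichever array was left out, and neighbours of Irgm1 (0) had 1 with the trend fit. The filter tests fewer probe sets and the reduced fits fewer arrays; otherwise the cause was not tested. No paired analysis was possible because no replicate number occurs in both groups.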
